A study of Mus musculus with 8 samples.

Results

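Core genes of the circadian clock, 9 in all, were examined in whole uterus from 8 mice, 1 array for each mouse. They comprise the activators Arntl, Clock and Npas2, the period genes Per1, Per2 and Per3, the cryptochromes Cry1 and Cry2, and Ciart. A member is the probe set that the platform annotation gives to that symbol, and the highest-mean probe set was to be taken where a gene had several. Each of the 9 genes had 1 probe set, so 9 of 19505 genes with a symbol are described. The list was selected on log2 differences between exposed and sham mice, since earlier results of these data had shown clock genes apart between the groups. These differences are therefore given as a description, with no test.

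All animals were wildtype C57BL/6J females kept under 12 hour light cycles and mated to vasectomised males, and uteri were taken on day 4.5 of pseudopregnancy, in the morning. In 4 mice, called exposed, an aerosol from an electronic cigarette was inhaled for 3 hours a day at 2 puffs a minute. The liquid held 24 mg/mL nicotine in a 55 to 45 mixture of propylene glycol with vegetable glycerin and was heated at 245 °C. Females were exposed on 5 days a week for 4 weeks ahead of mating and each day of pseudopregnancy after it. The 4 sham mice breathed room air. The labels give neither the hour of collection of any mouse nor an age, and a pseudopregnant uterus holds no embryo. Values are log2 expression, group values are mean ± SD over 4 mice, and the number of arrays limits their precision.

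The clock of mammalian cells is a feedback loop of transcription. BMAL1, the product of Arntl, pairs with CLOCK or its relative NPAS2 and binds E-boxes in the promoters of the period and cryptochrome genes. PER and CRY proteins, and CHRONO, the product of Ciart, then repress this pair. REV-ERB proteins repress Arntl and ROR proteins activate it, so that in peripheral tissues the Arntl transcript is high when REV-ERB and many period transcripts are low. The uterus, like most organs, carries such a clock in its cells.

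Among the 9 genes, Per3 and Arntl differed most between the groups, in opposite directions. Per3 was 2.48-fold higher and Arntl 1.58-fold lower in exposed uteri, and for both genes the range of the 4 exposed mice did not meet that of the sham mice. Of the other members, Per2, Cry2, Ciart and Per1 had higher and Clock, Npas2 and Cry1 lower means, all with overlapping groups. Groups that do not overlap were found for 2 of 9 members and for 2.73% of all probe sets. Limma placed 0 members and 0% of all 22206 probe sets past an adjusted p of 0.05. At an unadjusted p under 0.05 lay 2 members, Per3 and Arntl, and 5.42% of all probe sets. Because the list was drawn up from this contrast, nothing is read from these counts. The size of the difference, without its sign, had a median of 0.14 over the members and 0.09 over all probe sets. As the hour of collection of each mouse is not given, exposure and hour of collection cannot be told apart for these genes.

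**Figure D1:**
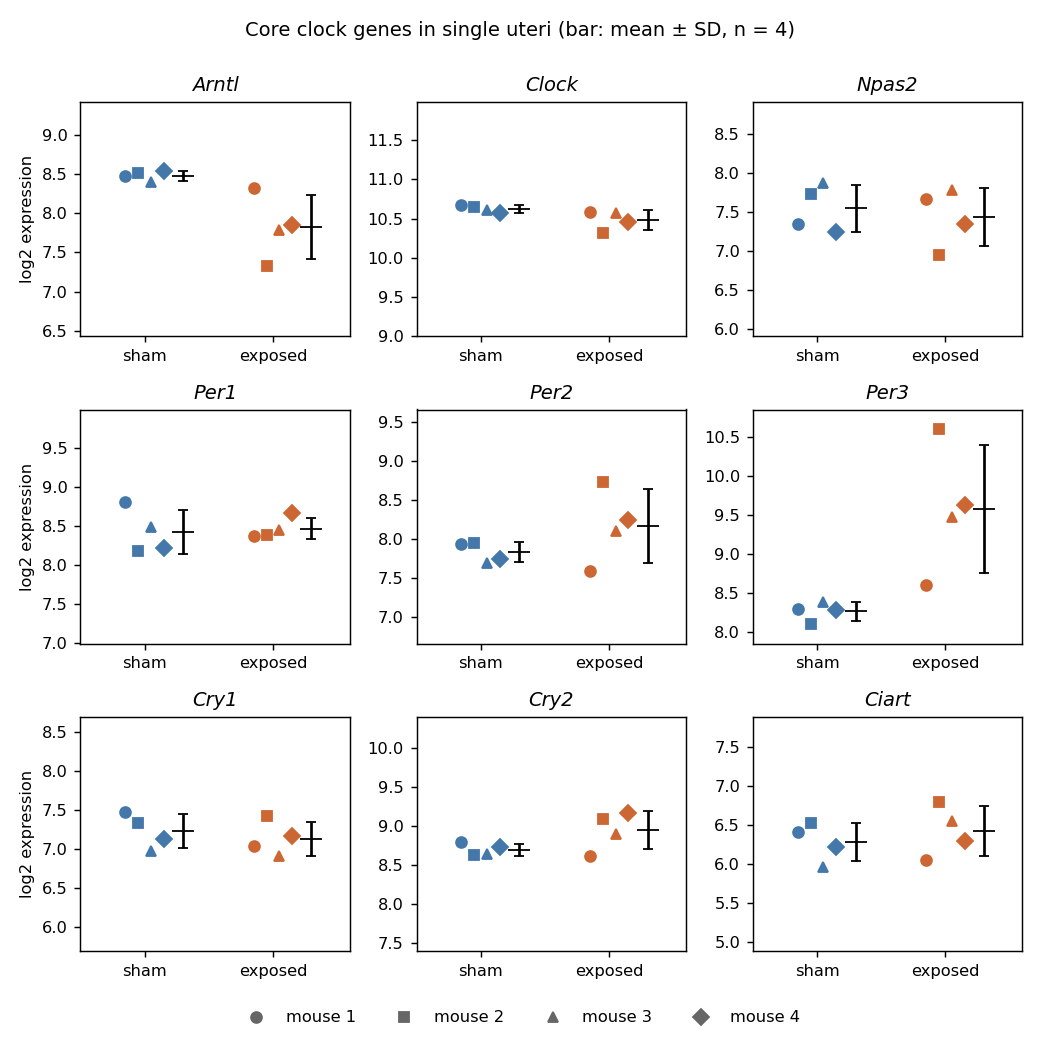
Log2 expression (y axis, a span of equal height in each panel) of the 9 clock genes in each of 4 sham (blue) and 4 exposed (orange) mice; symbols give the mouse number and black bars the mean ± SD. Per3 was 8.10 to 8.39 in sham and 8.60 to 10.60 in exposed mice, and Arntl 8.40 to 8.54 in sham and 7.32 to 8.32 in exposed mice.

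Arntl, the activator without which the loop does not run, was 8.49, 8.51, 8.40 and 8.54 in sham mice 1 to 4. It was 8.32, 7.32, 7.79 and 7.85 in exposed mice 1 to 4. The sham mice lay within 0.14 of each other, whereas the exposed mice spanned 1.00, with mouse 1 just below the sham mice and mouse 2 farthest away. Means were 8.48 ± 0.06 and 7.82 ± 0.41, a difference of -0.66 ± 0.18 (SE). Leaving out each mouse in turn gave differences from -0.83 to -0.50.

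The bases before the start of Arntl are shown because the gene ran opposite to Per3. The upstream 250 bases of its first annotated start (GRCm38.p6, chr7:113207215-113207464, plus strand) read as follows, with no E-box (CACGTG) or D-box (TTATGNAA) letters.
Arntl: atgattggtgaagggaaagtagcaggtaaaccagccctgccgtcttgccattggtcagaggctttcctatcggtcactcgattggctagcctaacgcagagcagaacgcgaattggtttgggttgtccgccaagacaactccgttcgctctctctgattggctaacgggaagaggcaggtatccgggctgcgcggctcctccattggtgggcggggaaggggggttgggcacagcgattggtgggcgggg

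Clock, the partner of BMAL1 and a histone acetyltransferase, was 10.68, 10.64, 10.60 and 10.57 in sham mice 1 to 4 and 10.59, 10.31, 10.57 and 10.45 in exposed mice 1 to 4. Exposed mice 2, 3 and 4 lay below all sham mice, exposed mouse 3 by a margin that vanishes at 2 decimals, and mouse 1 lay among them. The difference was -0.14 ± 0.09 (SE). It was -0.09 without exposed mouse 2 and -0.05 without exposed mice 2 and 4. Pairs of mice left out, here and below, were chosen after the data were seen.

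Npas2, which can stand in for Clock, was 7.34, 7.73, 7.87 and 7.24 in sham and 7.67, 6.95, 7.78 and 7.35 in exposed mice. Only exposed mouse 2 lay below the sham range. The difference of -0.11 ± 0.20 (SE) was smaller than the SD of either group, 0.30 and 0.37, and it turned to 0.05 without exposed mouse 2 and came to 0.00027 without sham mouse 3. The 3 activators thus had lower means in exposed mice in differing degree, and the differences between them were not tested.

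The 3 period genes encode the repressors whose build-up closes the loop. Per3 was 8.29, 8.10, 8.39 and 8.29 in sham mice 1 to 4. In exposed mice 1 to 4 it was 8.60, 10.60, 9.47 and 9.63. Exposed mouse 2 stood 5.04-fold above the sham mean, mice 3 and 4 stood 2.30-fold and 2.57-fold above it, and mouse 1 only 1.26-fold. Means were 8.27 ± 0.12 and 9.57 ± 0.82, a difference of 1.31 ± 0.33 (SE), which ran from 0.97 without exposed mouse 2 to 1.63 without exposed mouse 1.

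Per2, the period gene that also responds to glucocorticoid and other signals from outside the cell, was 7.94, 7.95, 7.69 and 7.75 in sham mice. It was 7.58, 8.73, 8.10 and 8.24 in exposed mice. Exposed mice 2, 3 and 4 exceeded all sham mice, but mouse 1 was the lowest of all 8. The difference was 0.33 ± 0.20 (SE). It was 0.53 without exposed mouse 1, 0.14 without exposed mouse 2, and 0.01 without both exposed mice 2 and 4.

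Per1, the period gene most readily induced by acute signals, showed no such pattern. It was 8.80, 8.18, 8.49 and 8.22 in sham and 8.37, 8.38, 8.45 and 8.67 in exposed mice, so that all 4 exposed values fell inside the sham range. The difference was 0.04 ± 0.14 (SE), and its sign changed without sham mouse 2, sham mouse 4 or exposed mouse 4 (-0.04 to 0.17 over all mice left out in turn, and -0.01 with array weights). Differences between the 3 period genes were not tested.

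**Figure D2:**
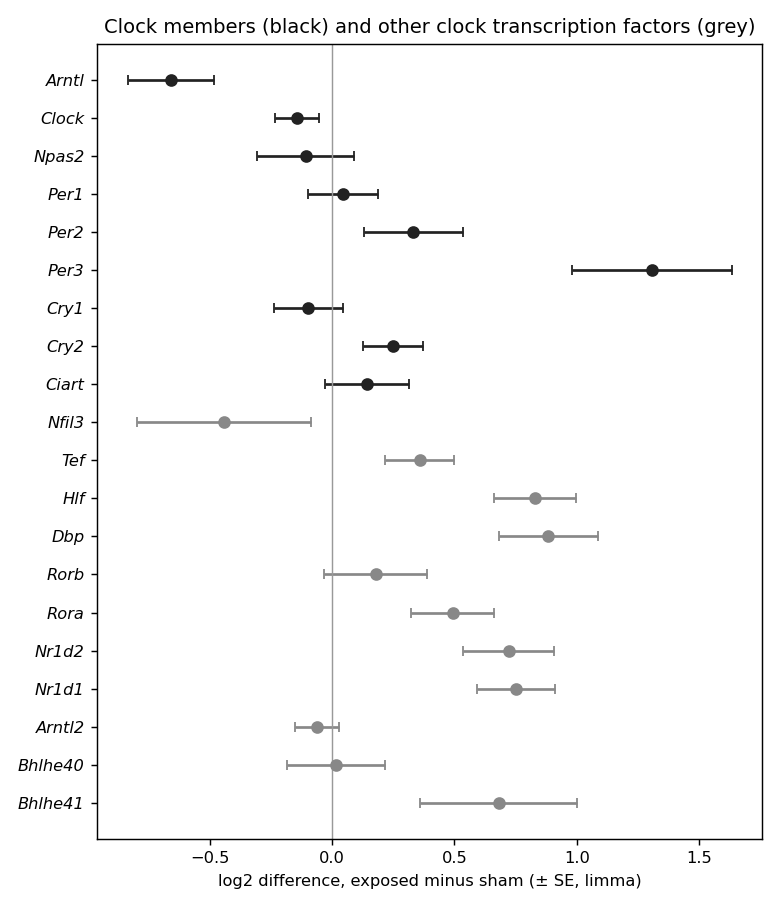
Log2 difference, exposed minus sham, with its standard error from limma, for the 9 clock members (black) and other transcription factors of the clock (grey). Per3 lies at 1.31 and Arntl at -0.66, with Per1 at 0.04, and Hlf, Dbp, Nr1d1 and Nr1d2 lie between 0.72 and 0.88.

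The cryptochromes are the stronger repressors of the loop. Cry1, whose transcript follows the period genes with a delay, was 7.47, 7.33, 6.97 and 7.13 in sham mice and 7.03, 7.42, 6.90 and 7.16 in exposed mice. Groups overlapped throughout, with a difference of -0.10 ± 0.14 (SE) against an SD of 0.22 in each group, and differences of -0.19 to -0.02 with each mouse left out in turn. Cry2 was 8.78, 8.62, 8.64 and 8.73 in sham and 8.62, 9.08, 8.90 and 9.16 in exposed mice. Exposed mice 2, 3 and 4 exceeded every sham mouse and mouse 1 lay marginally below all of them. Its difference was 0.25 ± 0.12 (SE), and 0.06 without exposed mice 2 and 4.

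Ciart was 6.40, 6.53, 5.97 and 6.21 in sham and 6.05, 6.79, 6.54 and 6.30 in exposed mice. Exposed mouse 2 was clearly the highest, exposed mouse 3 lay barely above the highest sham mouse, and the others lay within the sham range. The difference was 0.14 ± 0.17 (SE), and ran from 0.02 without exposed mouse 2 to 0.27 without exposed mouse 1. Ciart lay below the array median of 7.08, and no background level was used here to say how far above noise it stood.

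The promoters of members were set beside these values because members that share the same letters did not share their size of difference. RefSeq windows of build GRCm38.p6, from 250 bases before to 50 bases after an annotated start, were found for 8 of the 9 members (all but Per2), 12 windows in all. Both strands were searched for the E-box CACGTG and the related E′-box CACGTT, both bound by BMAL1 with its partner, and for the D-box TTATGNAA, bound by DBP, TEF and HLF. The AGGTCA core bound by REV-ERB and ROR proteins and the cyclic AMP element TGACGTCA were also searched. Among all 32851 windows, 7.15% held the E-box, 4.68% the E′-box, 3.38% the D-box, 16.3% the AGGTCA core and 1.79% the cyclic AMP element. A match describes letters and not a bound site.

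The 250 bases before the start are printed for the members with E-box or D-box letters, and capitals mark an E-box, E′-box or D-box. The windows are chr4:151044666-151044915 (minus strand) for Per3, chr11:69098699-69098948 (plus strand) for the first start of Per1, chr10:85185055-85185304 (minus strand) for Cry1, and chr3:95882229-95882478 (minus strand) for Ciart.
Per3: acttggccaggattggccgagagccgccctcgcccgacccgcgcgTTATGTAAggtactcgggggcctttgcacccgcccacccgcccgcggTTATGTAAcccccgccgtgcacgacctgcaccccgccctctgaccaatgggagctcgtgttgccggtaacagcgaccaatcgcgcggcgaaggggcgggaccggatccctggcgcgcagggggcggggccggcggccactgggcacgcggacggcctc
Per1: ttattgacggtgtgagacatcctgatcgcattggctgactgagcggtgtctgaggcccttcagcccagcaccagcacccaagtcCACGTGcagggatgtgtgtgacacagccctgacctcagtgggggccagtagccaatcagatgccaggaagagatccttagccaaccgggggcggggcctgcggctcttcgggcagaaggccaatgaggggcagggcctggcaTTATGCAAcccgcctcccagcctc
Cry1: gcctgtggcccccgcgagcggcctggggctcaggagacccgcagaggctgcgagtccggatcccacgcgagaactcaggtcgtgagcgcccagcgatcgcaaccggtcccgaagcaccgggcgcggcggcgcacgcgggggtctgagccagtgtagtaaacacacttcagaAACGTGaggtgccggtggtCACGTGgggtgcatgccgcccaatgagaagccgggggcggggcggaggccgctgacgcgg
Ciart: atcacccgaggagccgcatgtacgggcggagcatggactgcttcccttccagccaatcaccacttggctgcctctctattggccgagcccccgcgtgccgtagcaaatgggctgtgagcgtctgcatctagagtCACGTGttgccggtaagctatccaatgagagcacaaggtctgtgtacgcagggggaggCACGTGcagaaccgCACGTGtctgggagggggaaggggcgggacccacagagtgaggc

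Per3, the member with the largest difference, held a pair of identical D-box matches, 205 and 158 bases before its start, and no E-box letters in this window. At least 2 D-box matches were held by 0.161% of all windows. Per1 held an E-box 166 bases and a D-box 24 bases before its first start, and its level overlapped between groups. Ciart held E-boxes at 116, 58 and 44 bases before its start, a number that 0.0883% of windows reached, and it too overlapped. Cry1 held an E-box at 60 bases and an E′-box at 79 bases, and Cry2 an E′-box at 166 bases before its start. An AGGTCA core lay 32 bases after the second start of Arntl, another 119 bases before the third start of Clock, and one 137 bases before the first start of Per1. No window of a member held the cyclic AMP element, and the window of Npas2 held none of these letters.

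**Figure D3:**
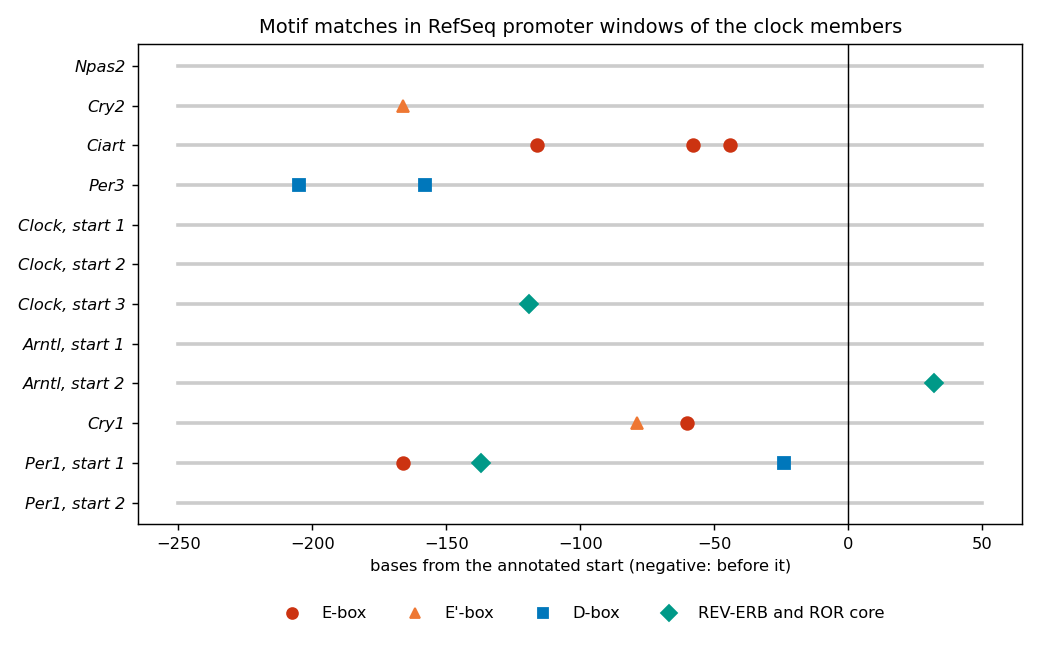
Positions of motif matches (x axis, bases from the annotated start, which is the vertical line) in the 12 RefSeq promoter windows of 8 clock members. Per3 shows 2 D-box matches, at 205 and 158 bases before the start, and Ciart 3 E-box matches, at 116, 58 and 44 bases.

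Activators and repressors were then compared within each mouse. The mean of Arntl, Clock and Npas2 minus the mean of the 6 repressor genes, set relative to the sham mean, was -0.21, 0.08, 0.17 and -0.04 in sham mice 1 to 4. It was 0.05, -1.40, -0.45 and -0.74 in exposed mice 1 to 4. Exposed mice 2, 3 and 4 thus lay below every sham mouse, while exposed mouse 1 lay inside the sham range. The difference between group means was -0.63, with an SD of 0.16 in sham and 0.61 in exposed mice. It was -0.38 without exposed mouse 2, -0.86 without exposed mouse 1, and -0.20 without exposed mice 2 and 4. Being a score over genes chosen for this contrast, it has no p.

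Both parts of this score lay away from sham in exposed mice 2, 3 and 4. The activator mean was -0.02, -0.69, -0.17 and -0.33 relative to sham in exposed mice 1 to 4. The mean of the period genes was 0.01, 1.06, 0.50 and 0.67 in the same mice. Arntl and Per3 carried the larger part of these means. Between groups Arntl differed by -0.66, Clock by -0.14 and Npas2 by -0.11, while Per3 differed by 1.31, Per2 by 0.33 and Per1 by 0.04. The cryptochrome mean stayed closer to sham, at -0.13, 0.29, -0.06 and 0.20, against -0.15 to 0.17 in sham mice.

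Arntl and Per3 mirrored each other from mouse to mouse. From the lowest Arntl upward, the exposed mice ranked 2, 3, 4 and 1, followed by sham mouse 3. From the highest Per3 downward, the exposed mice ranked 2, 4, 3 and 1, again followed by sham mouse 3. Mice 3 and 4, which change places, were close for both genes. As a measure of likeness, Pearson's r between the genes over the 8 mice was -0.993, the lowest that Arntl had with any of 19504 other genes. With each value taken as its deviation from its group mean, r was -0.981, and it was -0.989 over the 6 mice left without exposed mice 2 and 3, the farthest from the Arntl median. Among the 4 sham mice alone r was -0.643, and among the 4 exposed mice -0.988. The groups differ for both genes and the mice fall into separate clusters, so these values describe the 8 arrays and have no p.

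**Figure D4:**
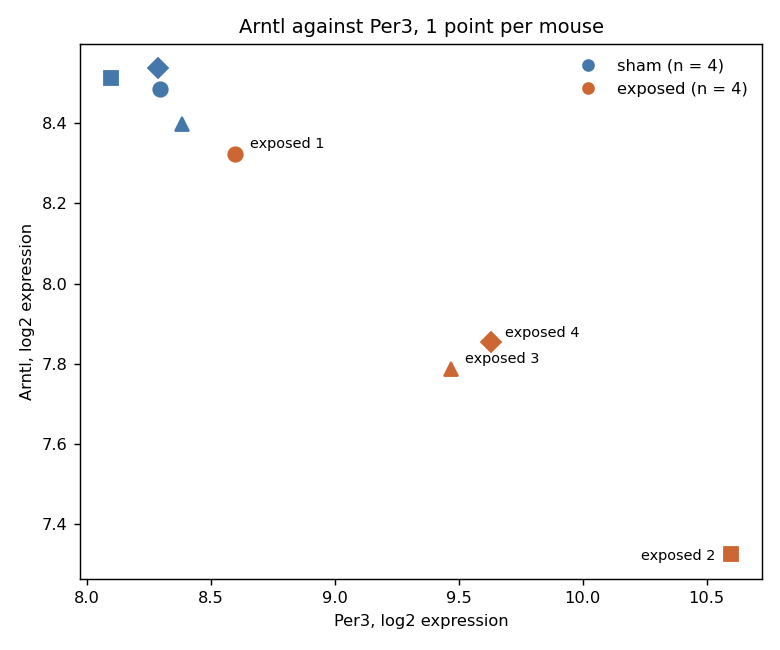
Arntl (y axis) against Per3 (x axis), both in log2 expression, with 1 point for each of 4 sham (blue) and 4 exposed (orange) mice. The sham mice gather at 8.10 to 8.39 for Per3 with exposed mouse 1 next to them, exposed mice 3 and 4 lie near 9.47 and 9.63, and exposed mouse 2 lies at 10.60 with the lowest Arntl, 7.32.

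The other members followed Arntl less closely. Over the 8 mice, r with Arntl was 0.883 for Clock and 0.452 for Npas2, -0.873 for Per2, -0.823 for Cry2 and -0.630 for Ciart. It was -0.119 for Per1 and -0.0541 for Cry1. Without exposed mice 2 and 3, r was -0.615 for Per2, 0.164 for Npas2, 0.105 for Ciart and 0.244 for Cry1, so the values for Npas2 and Ciart rest on those mice. Genes outside the members most like Arntl were Scube2 (0.966) and Gas1 (0.966), which act at the cell surface in hedgehog signalling, and Scyl2 (0.966), of clathrin-coated vesicles. Most opposed to it were Fbxo47 (-0.965), Selenbp2 (-0.961) and Srpk2 (-0.956), a kinase of splicing factors. Most like Per3 were Selenbp2 (0.971), Ghr, the growth hormone receptor (0.961), and Srpk2 (0.958). Most opposed to Per3 were Tbxas1, thromboxane synthase (-0.972), Api5 (-0.969) and Nmd3, which exports the large ribosomal subunit (-0.968). For Per1 the highest were Mapk8ip2 (0.954), Prss16 (0.947) and Golga1 (0.933), and the lowest Fam135b (-0.925), Gsdmcl1 (-0.923) and Frmd7 (-0.923). Each is an extreme over only 8 mice, among genes left after a filter on gene names given in the processing section.

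Exposed mice had the larger SD for 8 of 9 members, the exception being Per1 (SD 0.29 in sham and 0.14 in exposed mice). The same held for 65.8% of all probe sets. Exposed mouse 2 was the exposed mouse farthest from the sham mean for 6 of 9 members. The share of all probe sets for which this held was not computed. Over all probe sets, the arrays of exposed mice 4 and 2 had the lowest mean r with the other arrays, 0.977 and 0.982. Leaving out exposed mouse 1 raised the number of members whose groups do not overlap from 2 to 5, with Clock lower and Per2 and Cry2 higher beside Arntl and Per3, and to 10.2% of all probe sets.

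Other genes of the clock came from lists also chosen with earlier results known. Of 48 listed genes 42 were measured, and limma placed 0 of them past an adjusted p of 0.05. At an unadjusted p under 0.05, 6 were higher and 0 lower, where 2.91% and 2.5% of all probe sets lay. Groups did not overlap for 6 as higher and 0 as lower, beside 1.38% and 1.35% of all probe sets. These were not the same 6 genes. The 6 by p were 3 D-box factors and 3 REV-ERB or ROR genes. Those without overlap were 2 D-box factors, 1 REV-ERB gene, 2 kinases and 1 gene of protein turnover. The largest differences in the kinase and protein turnover lists were 0.18 and 0.17. The median difference was 0.06 over the 42 genes and 0.00141 over all probe sets.

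Hlf, Dbp and Tef, factors that bind the D-box, had higher means. Their part in the levels of Per3 and Per1, both with D-box letters before the start, was not tested. Hlf was 6.44 to 6.60 in sham and 7.15, 7.90, 7.05 and 7.26 in exposed mice 1 to 4, a difference of 0.83 ± 0.17 (SE). Dbp was 10.47 to 11.20 in sham and 11.28, 12.18, 11.58 and 11.64 in exposed mice, a difference of 0.88 ± 0.20 (SE). Tef, the third PAR-bZIP factor, overlapped between groups (0.36 ± 0.14, SE). Nfil3, their antagonist at the D-box and named after its values were seen, was lower in the mean, with a difference of -0.44 ± 0.36 (SE). Limma's adjusted p over all probe sets was 0.838 for Hlf, Dbp and Tef.

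Among regulators of Arntl, 4 of 4 measured REV-ERB and ROR genes had higher means. Nr1d1, which encodes REV-ERB alpha, was 8.76 to 9.47 in sham and 9.59, 9.77, 10.05 and 10.02 in exposed mice 1 to 4. The difference was 0.75 ± 0.16 (SE), with no overlap. For Nr1d2 it was 0.72 ± 0.19 and for Rora 0.49 ± 0.17 (SE), each with 1 exposed mouse, mouse 1, inside the sham range. Limma's adjusted p was 0.838 for each of these 3 genes. The remaining gene, Rorb, named after its values were seen, differed by only 0.18 ± 0.21 (SE), with overlapping groups and its highest value in a sham mouse. In exposed mouse 1, whose Arntl and Per3 lay next to the sham range, Hlf, Dbp and Nr1d1 were above every sham mouse. This follows from their groups not overlapping and is no separate result. Tef, Nfil3, Nr1d2, Rora and Rorb lay inside the sham range in the same mouse.

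In the remaining clock lists, limma placed 0 genes at an unadjusted p under 0.05. Bhlhe41, a repressor at E-boxes, was 5.31 to 6.00 in sham mice and 7.48 in exposed mouse 2, with the other exposed mice at 5.95 to 5.97 (0.68 ± 0.32, SE, limma adjusted p = 0.838), and its relative Bhlhe40 differed by 0.02. Arntl2, the paralogue of Arntl, differed by -0.06 ± 0.09 (SE). Of 8 kinases that act on clock proteins, 6 had higher and 2 lower means and the largest difference was 0.18, for Prkaa2. Of 5 genes of protein turnover in the clock, 4 had higher means, with Btrc, of the ligase that marks PER proteins, at 0.13 ± 0.08 (SE). Of 9 cofactors 4 had higher and 5 lower means, from Crebbp at 0.17 to Timeless at -0.30. Of 9 output genes 5 were higher and 4 lower in the mean, with Pdk4 at 0.49, Wee1 at -0.36 and Coq10b at -0.29.

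Signals that act on Per1 and Per2 from outside the loop were set beside them. Of 11 immediate early genes, 3 had higher and 8 lower means. Their mean level, relative to sham, was 0.91 in sham mouse 1 and -0.37 to -0.18 in the other sham mice, and it ran from -0.31 to 0.27 in exposed mice. Sham mouse 1 also had the highest Per1 and the highest Cry1 of all mice, and Sik1, an inducible kinase, was 8.32 in it and 6.91 to 7.23 in the other sham mice. The next highest Per1, in exposed mouse 4, came with an immediate early level of -0.14. Of 8 glucocorticoid-responsive genes, 2 had higher and 6 lower means, with Fkbp5 at -0.65 ± 0.25 and Sgk1 at -0.85 ± 0.36 (SE, limma adjusted p = 0.838 for both). Their mean level was 0.01, -0.75, -0.11 and -0.38 in exposed mice 1 to 4 and -0.11 to 0.19 in sham mice. The part of these genes in the levels of Per1 and Per2 was not tested.

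**Figure D5:**
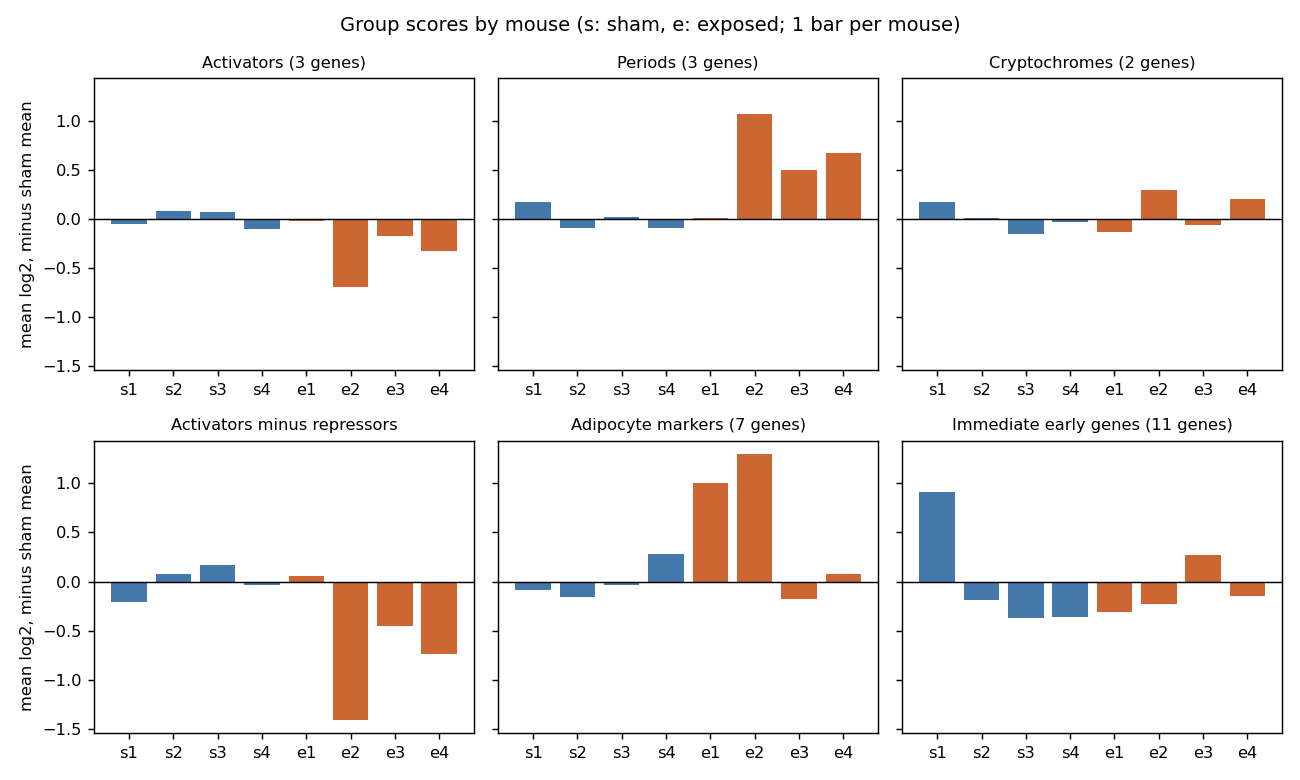
Mean log2 level of gene groups in each mouse relative to the sham mean (y axis, common to all panels), with 1 bar for each of 4 sham (blue, s1 to s4) and 4 exposed (orange, e1 to e4) mice. Period genes reach 1.06 and the activator minus repressor score -1.40 in exposed mouse 2, while adipocyte markers are highest in exposed mice 1 (1.00) and 2 (1.29).

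Tissue make-up differed between mice as well. In bulk tissue, fewer cells of a type and less RNA per cell cannot be told apart. All 7 smooth muscle and all 7 stromal markers measured stood above the array median of 7.08 on every array, as did 6 of 9 luminal epithelium and 1 of 6 gland markers. Among them were the smooth muscle actin Acta2 at 12.49 to 13.05 and the epithelial cadherin Cdh1 at 10.34 to 11.26. Luminal Lpar3 fell to 5.16 and Calb1 to 6.41 in exposed mouse 4, and the gland protease Prss28 was 4.51 in exposed mouse 1. The mean of 7 of 8 adipocyte markers measured, 6 of them higher in the mean, was 1.00, 1.29, -0.17 and 0.08 relative to sham in exposed mice 1 to 4, and -0.16 to 0.28 in sham mice. Exposed mouse 1 had a high adipocyte level with Per3 at 8.60. Exposed mice 3 and 4 had adipocyte levels inside or just below the sham range with Per3 at 9.47 and 9.63. Without exposed mice 1 and 2, Per3 differed by 1.28 and Arntl by -0.66, beside 1.31 and -0.66 with all mice. Without exposed mice 2 and 4, Per3 differed by 0.77 and Arntl by -0.43. Both pairs were chosen after the data were seen. Exposed mouse 2 also had the lowest mean of 7 smooth muscle (-0.66), 7 stromal (-0.43) and 4 macrophage markers (-0.65), against sham ranges of -0.35 to 0.14, -0.08 to 0.05 and -0.09 to 0.17. Its stromal markers went opposite ways. Dcn, at 13.07, was the highest of all mice, and Lum and Vim lay inside the sham range. Col1a1 (9.95), Col3a1 (11.08), Hoxa11 (8.76) and Hand2 (7.68) were the lowest of all mice. Exposed mouse 4 had the highest mean of 6 gland markers (2.28) and the lowest of 9 luminal epithelium markers (-0.97), against -0.45 to 0.36 and -0.14 to 0.14. Its gland markers went opposite ways, with Prss28, Prss29 and Spink1 at 12.64, 12.04 and 12.22, the highest of all mice, and Foxa2 at 7.16 and Cxcl15 at 6.51, the lowest. Its luminal markers were not uniform either. Krt8, Krt19, Cdh1, Cldn7, Calb1 and Lpar3 lay below every sham mouse. Epcam (8.90) and Wnt7a (7.45) lay inside the sham range, and Krt18 (9.18) above it. The mean of 5 T, B and natural killer cell markers was 0.78 in exposed mouse 4 and -0.20 to 0.21 in sham mice. Both measured erythrocyte markers of 5 listed were higher in the mean. Their level was -0.09, 0.18, 0.25 and 0.34 in exposed mice 1 to 4 and -0.04 to 0.03 in sham mice. Exposed mice 2, 3 and 4 lay above the sham range and exposed mouse 1 below it. The part of the adipocyte, smooth muscle, stromal, macrophage, gland, luminal epithelium, lymphocyte and erythrocyte levels in the clock values was not tested.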

How the data were processed

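The deposited table holds log2 expression for 22206 probe sets on 8 arrays of biotin-labelled total RNA. The log2 scale was read from the values. Per the submitters' processing notes the authors used Partek. Its version, the background correction, the summarisation, the scaling and the genome build were not stated there. After sorting, no value differs by more than 0.0198 between arrays, so a change shared by all genes is set to 0 by this scaling. Symbols came from the platform annotation (19572 probe sets with 1 symbol, 2634 with none). For 55 symbols on several probe sets the highest mean was kept.

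Group differences came from lmFit and eBayes of limma 3.58.1 (R 4.3.3), with no covariate and Benjamini-Hochberg adjustment over all probe sets, a procedure tested on simulated data. Folds are powers of 2 of the log2 difference. Each array is a separate mouse per the labels. Members and gene lists were chosen with earlier results of these data known. Named genes outside the members were up to 3 per list of smallest p, and the 3 most and least correlated with Arntl, Per3 and Per1. Nfil3 and Rorb were named besides these, after their values were seen. Promoter sequences are RefSeq's, GRCm38.p6. Alternatives comprised other scalings, filters at the 25% and 50% levels of mean expression, other variance models, array weights, a replicate block, other scores and leaving out mice.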

Additional observations from a re-analysis of the deposited data

How the results depend on the processing

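No probe set passed an adjusted p of 0.05 in limma under any scaling, filter, variance model, weighting or probe set rule tried, while 1203 had an unadjusted p under 0.05. Leaving out 1 mouse at a time gave 0 to 1 probe sets, the 1 being Cldn10 without exposed mouse 1. Among members, 2 had groups that do not overlap, and 2 to 5 with 1 mouse left out, 5 without exposed mouse 1. Leaving out exposed mice 1 and 2, chosen after the data were seen, gave 7 probe sets, Per3 among them, and 5 members without overlap. Leaving out exposed mice 2 and 4, also chosen after the data were seen, gave 0 probe sets and 2 members without overlap. With fewer exposed mice, groups are more often free of overlap. The share of all probe sets without overlap was not computed for either pair. Nothing is read from the counts of either pair for the members, which were chosen from this contrast. The count of other clock genes past the threshold was 0 in every setting. The activator minus repressor difference of -0.63 was -0.94 with medians, -0.76 with no cryptochromes and -1.22 for Arntl minus the period mean, and ran from -0.86 to -0.38 with 1 mouse left out. It was not computed under the 50% filter, which removes Ciart. Same-numbered mice of the 2 groups did not deviate together (r of deviations -0.238 to 0.085, and none correlated best with its own number), and with a replicate block 0 probe sets passed, 1274 at an unadjusted p under 0.05.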
